A study of Zea mays with 6 samples.

Results

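The MYB transcription factors of the maize ovule were described here in 3 tissues: embryo sacs collected 14 to 16 h after pollination, unpollinated embryo sacs, and the nucellus. All plants were of the inbred line Q319, and each tissue had 2 libraries from separate biological samples. Embryo sacs are the female gametophytes of the ovule, with the egg cell and central cell, and lie inside the nucellus, a maternal tissue. Both were freed from ovule slices by enzyme digestion before RNA extraction. A MYB model was a transcript model whose deposited protein description held MYB or Myb at the start of a word, with no WRKY, MADS or auxin in it. That rule chose 27 models of 24 genes, out of 42007 models of 31057 genes with a read in any library, and the exclusion words removed 0 models.

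MYB proteins bind DNA through repeats of a helical domain, and the class with R2 and R3 repeats is the largest in plants. Members of the family switch on or repress genes of phenylpropanoid, lignin and pigment metabolism, direct cuticle and wall deposition, set cell identity, and answer stress and phosphate supply, while related single-repeat proteins run the circadian clock. Several act in a complex with a bHLH partner and a WD40 protein, the classic case being pigment control in the maize kernel.

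In units of 1000 unique reads, the libraries held 2541 and 2680 from pollinated embryo sacs, 3259 and 3022 from embryo sacs, and 3006 and 3199 from nucellus. Levels are given as CPM, reads per 1000000 after TMM scaling, which corrects for differences in RNA composition. Levels are compared between genes only as RPKM, reads per kilobase of model per 1000000 unique reads, as deposited. A model was called higher or lower at an adjusted p under 0.05 and a log2 fold change of at least 1, by edgeR's quasi-likelihood test over 18844 models. The embryo sac marker list (9 models) summed to 2039 and 1974 CPM in pollinated embryo sacs and 2269 and 2214 CPM in embryo sacs, against 8.72 and 5.63 CPM in nucellus, and 7 of the 9 had no read in nucellus. The single gene of the nucellus list, bearded-ear1, summed to 1.02 and 0 CPM in pollinated embryo sacs and 0 CPM in both embryo sac libraries, against 48.6 and 62.8 CPM in nucellus. Models described as pollen proteins summed to 34.0 and 41.1 CPM in pollinated embryo sacs, 39.4 and 50.0 CPM in embryo sacs, and 67.9 and 76.5 CPM in nucellus. The nucellus sum was led by a pollen-specific protein SF3 model (GRMZM2G004959_T01, 35.1 and 41.2 CPM), while a C13 model (GRMZM2G317406_T01) had 7.62 and 10.3 CPM in pollinated embryo sacs, 3.91 and 6.86 CPM in embryo sacs and 0 reads in nucellus. Of the 29 listed pollen models, 5 had reads in pollinated embryo sacs only, with at most 7 reads each, and their part in the results below was not tested.

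MYB models were a small part of every library. Their deposited counts, as unscaled reads per 1000000 unique reads, came to 603 (exact 95% interval 573 to 634) and 700 (669 to 733) in pollinated embryo sacs, 358 (338 to 379) and 344 (324 to 366) in embryo sacs, and 329 (309 to 350) and 363 (343 to 385) in nucellus. These intervals cover counting error only. Pollinated embryo sacs were above the other 4 libraries, which overlapped one another. After TMM scaling the models summed to 778 and 919 CPM in pollinated embryo sacs, 415 and 397 CPM in embryo sacs, and 227 and 252 CPM in nucellus. Pollinated embryo sacs were highest on both scales, while embryo sacs stood above nucellus only after TMM scaling. GRMZM5G803308_T01 alone held 73.0% and 73.3% of the MYB reads in pollinated embryo sacs, and 51.5% and 47.3% in embryo sacs. In nucellus that model held 16.7% and 20.2%. Unscaled, the reads of the other MYB models together were not highest in pollinated embryo sacs. After TMM scaling their summed level was highest there, although the lower pollinated library was only narrowly above embryo sacs. Most of the reads came from few models: the 3 leading models of each library held 87.3% and 90.3% of the MYB reads in pollinated embryo sacs, 83.9% and 82.8% in embryo sacs, and 76.3% and 76.9% in nucellus. In bulk tissue, fewer cells of a type and less RNA per cell cannot be told apart, and this applies to each level below.

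**Figure D1:**
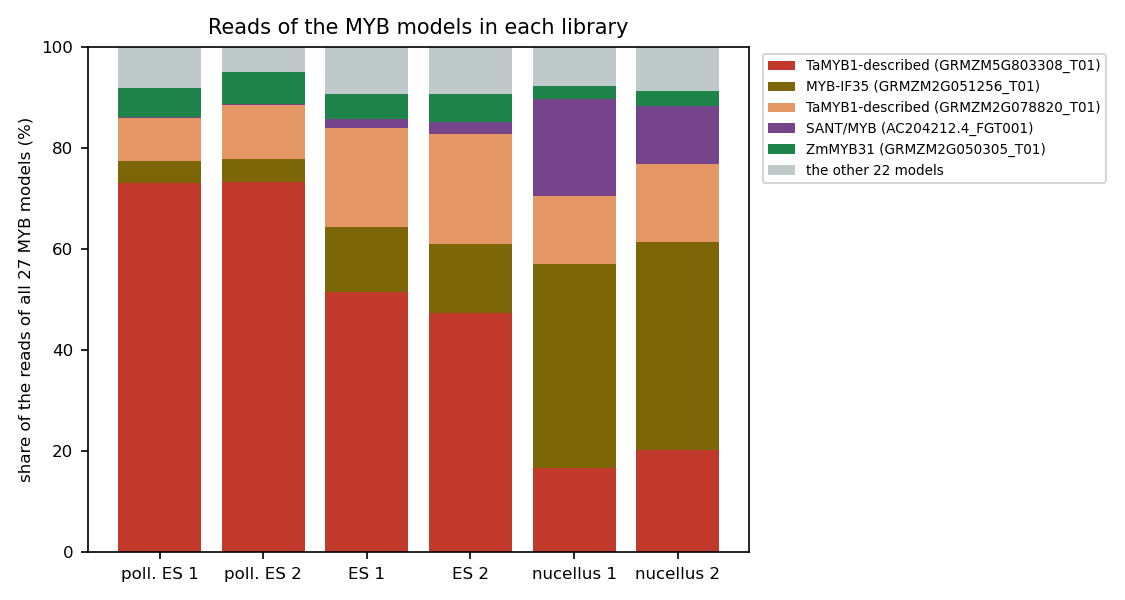
Share of the reads of all 27 MYB models, in percent, held by each of the 5 models with the most reads and by the other models together, in each library (poll. ES, embryo sacs after pollination; ES, embryo sacs). GRMZM5G803308_T01 held 73.0% and 73.3% of MYB reads in pollinated embryo sacs and 51.5% and 47.3% in embryo sacs, while GRMZM2G051256_T01 held 40.4% and 41.2% in nucellus.

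Among the 27 models, GRMZM5G803308_T01 was the most abundant in both embryo sac tissues. Its description names TaMYB1, a wheat factor known to respond to low oxygen and other abiotic stress, and the reference gene table calls the gene MYB112. It had 568 and 674 CPM in pollinated embryo sacs, 214 and 188 CPM in embryo sacs, and 37.8 and 50.9 CPM in nucellus. The 3 tissues did not overlap, and the model stepped up at each comparison. It was higher in pollinated embryo sacs than in embryo sacs by a log2 fold change of 1.63 ± 0.11 (SE, adjusted p = 9.61e-28) and higher in embryo sacs than in nucellus by 2.17 ± 0.13 (adjusted p = 1.57e-34). Against nucellus, the pollinated embryo sacs were higher by 3.80 ± 0.13 (adjusted p = 5.72e-62). By mean RPKM it ranked 272 of 30479 models in pollinated embryo sacs, 745 of 34901 in embryo sacs and 3531 of 36541 in nucellus.

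A second gene, GRMZM2G078820_T01, carries the same TaMYB1 description but did not share that step after pollination. It had 66.5 and 97.9 CPM in pollinated embryo sacs, 81.4 and 86.6 CPM in embryo sacs, and 30.5 and 38.8 CPM in nucellus. The embryo sac values lay inside the range of the pollinated ones, with a log2 fold change of -0.03 ± 0.15 (adjusted p = 0.895), and both tissues were above nucellus. The model was called higher than in nucellus in embryo sacs (1.27 ± 0.15, adjusted p = 2.26e-13) and in pollinated embryo sacs (1.25 ± 0.16, adjusted p = 2.61e-12). Both calls were lost when libraries were scaled to total counts (0.52 and 0.32 for embryo sacs and pollinated embryo sacs), and the pollinated one also without pollinated embryo sac replicate 2 (0.97). The RPKM of the MYB112 model was 8.43 and 6.80 times that of GRMZM2G078820_T01 in the libraries of pollinated embryo sacs, 2.59 and 2.14 times in those of embryo sacs, and 1.23 and 1.30 times in those of nucellus. The pair were thus near each other per length in nucellus and furthest apart after pollination.

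**Figure D2:**
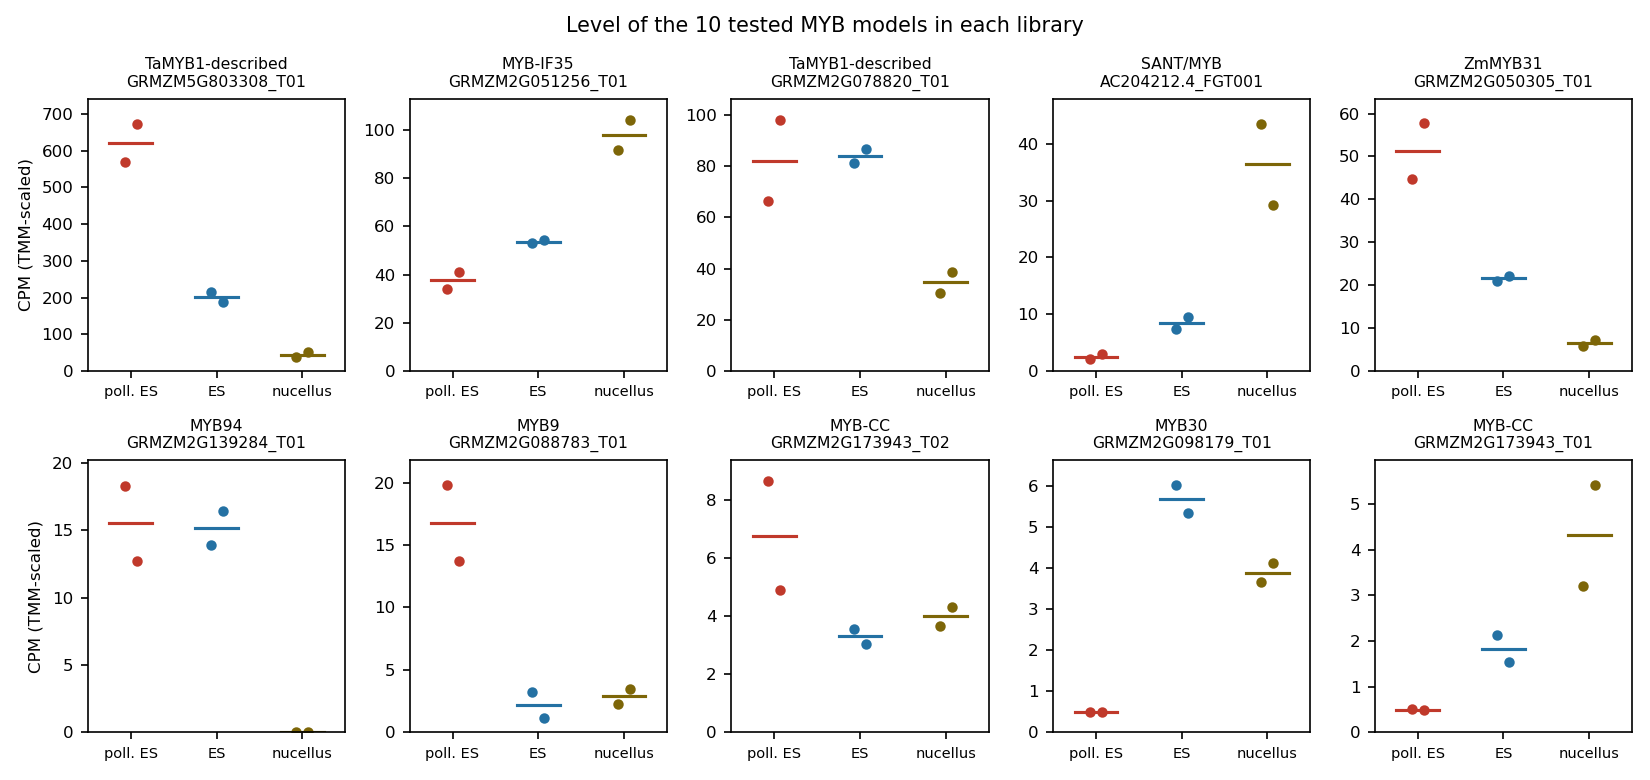
Level of each of the 10 tested MYB models in CPM on a linear axis from 0, with a point per library and a bar at the mean of the 2 libraries of pollinated embryo sacs (poll. ES), embryo sacs (ES) and nucellus; each panel has its own scale. The panel of GRMZM5G803308_T01 runs up to 674 CPM in pollinated embryo sacs, and MYB94 is at 0 in both nucellus libraries.

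Of the 27 MYB models, 10 models of 9 genes had enough reads to be tested, and the other 17 had 1 to 32 reads over all libraries. Passing depended on the reads in the best covered tissue, so counts among the 10 describe the tested models and not the family. In pollinated embryo sacs against embryo sacs, 3 of the 10 were called higher, beside 13.0% of all tested models, and 2 were called lower, beside 19.3% (either direction 5 of 10, beside 32.3%). Their median log2 fold change was 0.00, and that of all models was -0.08. In embryo sacs against nucellus, 4 were higher, beside 23.2% of all tested models, and 2 were lower, beside 16.3% (either direction 6 of 10, beside 39.4%), with a median of 0.14 for MYB models and -0.00 for all. In pollinated embryo sacs against nucellus, 5 were higher, beside 27.2%, and 4 were lower, beside 28.0% (either direction 9 of 10, beside 55.2%), with medians of 0.99 and -0.06. Both comparisons with pollinated embryo sacs use the same libraries, and both comparisons with nucellus share the nucellus libraries. With libraries scaled to total counts the median of all models moved to -0.26, -0.75 and -0.99 in the same 3 comparisons. The medians of the 10 MYB models were then -0.17, -0.61 and 0.07. Of all calls, higher ones then made up 30.6%, 28.6% and 26.0%, instead of 40.1%, 58.8% and 49.3%.

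**Figure D3:**
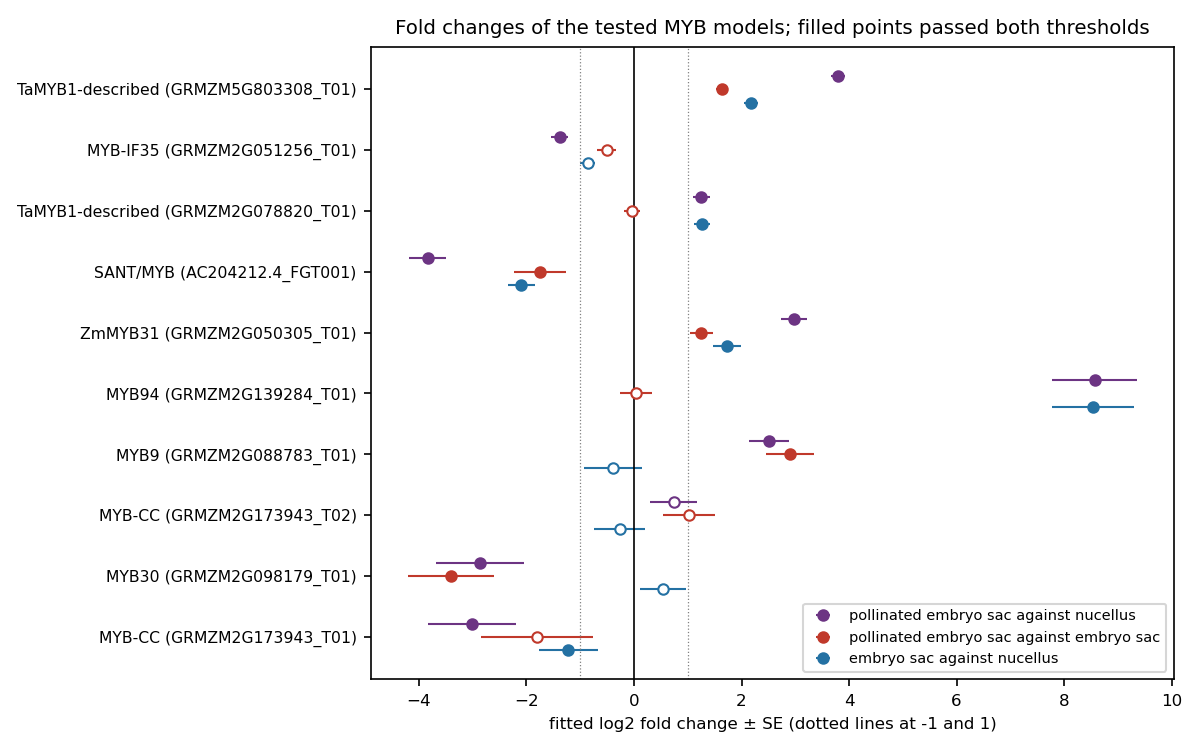
Fitted log2 fold change with its standard error for the 10 tested MYB models in the 3 comparisons, with filled points where both thresholds were passed. GRMZM5G803308_T01 and ZmMYB31 lie right of 1 in all 3 comparisons and the SANT/MYB model lies left of -1 in all 3; for MYB94, with no read in nucellus, the fitted value against nucellus is no measure of size.

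The reference table names GRMZM2G050305_T01 ZmMYB31, a repressor of lignin genes in maize. It had 44.7 and 57.8 CPM in pollinated embryo sacs, 21 and 22.1 CPM in embryo sacs, and 5.73 and 7.15 CPM in nucellus. The 3 tissues stood apart in the same order as for the MYB112 model. It was higher after pollination by a log2 fold change of 1.25 ± 0.21 (adjusted p = 1.74e-07), higher in embryo sacs than in nucellus by 1.73 ± 0.26 (adjusted p = 2.46e-09), and higher in pollinated embryo sacs than in nucellus by 2.98 ± 0.24 (adjusted p = 8.92e-25). The call of embryo sacs against nucellus was narrowly lost under total count scaling (0.98). Its relative ZmMYB42 (GRMZM2G419239_T01), also a repressor of lignin genes in maize, had too few reads for the test: 4 and 2 reads in pollinated embryo sacs, 5 and 3 in embryo sacs, and 5 and 6 in nucellus. It was not called in any comparison without the low-count filter either, and a small difference could not be detected at these counts.

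MYB94 and MYB9, which share names with Arabidopsis factors of the cuticle and suberin, were both higher in pollinated embryo sacs than in nucellus. They differed in their level in unpollinated embryo sacs. MYB30, described below, was lower in pollinated embryo sacs than in nucellus. MYB94 (GRMZM2G139284_T01), which in Arabidopsis activates wax synthesis, had 18.3 and 12.7 CPM in pollinated embryo sacs and 13.9 and 16.4 CPM in embryo sacs, and 0 reads in both nucellus libraries. The embryo sac values lay within the pollinated range (log2 fold change 0.03 ± 0.30, adjusted p = 0.936), while nucellus stood apart from both. With 3 reads per nucellus library as the floor, the model was at least 23.2-fold higher in pollinated embryo sacs (adjusted p = 2.95e-20) and at least 22.6-fold higher in embryo sacs (adjusted p = 5.58e-21) than in nucellus. Reads covered 57.6% and 59.1% of its length in pollinated embryo sacs and 54.4% and 57.3% in embryo sacs.

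MYB9 (GRMZM2G088783_T01, MYB47 in the reference table), a regulator of suberin in the Arabidopsis seed coat, had its high values in the pollinated libraries. It had 19.8 and 13.7 CPM in pollinated embryo sacs, 3.20 and 1.14 CPM in embryo sacs, and 2.29 and 3.47 CPM in nucellus. Both pollinated libraries were above the other 4, and embryo sacs and nucellus overlapped (log2 fold change -0.39 ± 0.54, adjusted p = 0.557). With total count scaling MYB9 was called lower in embryo sacs than in nucellus (-1.13, adjusted p = 0.0482). The model was higher after pollination by 2.90 ± 0.44 (adjusted p = 4.29e-09) and higher in pollinated embryo sacs than in nucellus by 2.51 ± 0.37 (adjusted p = 8.92e-10). Without embryo sac replicate 1, the change after pollination was 3.82. Among the tested MYB models it had the largest fitted increase after pollination, in a model with 1.40 ± 0.93 RPKM (SD, n = 2) in embryo sacs.

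MYB30 (GRMZM2G098179_T01), whose Arabidopsis namesake promotes hypersensitive cell death and very-long-chain fatty acid synthesis, was lower after pollination. It had 0.51 and 0.49 CPM in pollinated embryo sacs, 6.04 and 5.34 CPM in embryo sacs, and 3.67 and 4.12 CPM in nucellus. The pollinated embryo sacs, with 2 reads in all, lay below both other tissues. Embryo sacs had 11.4 times the pollinated level (exact 95% interval 2.91 to 98.6, adjusted p = 0.000136) and nucellus 7.82 times (2.01 to 67.1, adjusted p = 0.00116). Embryo sacs and nucellus did not differ past the threshold (0.54 ± 0.43, adjusted p = 0.275), and the sign of that difference changed under total count scaling (-0.20).

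The SANT/MYB and MYB-IF35 models were higher in nucellus than in either embryo sac tissue. The name SANT/MYB refers to the SANT fold, which resembles a MYB repeat, in the model AC204212.4_FGT001 of 291 bases. It had 2.03 and 2.94 CPM in pollinated embryo sacs, 7.46 and 9.53 CPM in embryo sacs, and 43.6 and 29.2 CPM in nucellus. The order of the tissues was the reverse of that of the MYB112 model, again with no overlap. It fell after pollination by 1.75 ± 0.48 on the log2 scale (adjusted p = 0.00106), and was lower than in nucellus in embryo sacs (-2.10 ± 0.25, adjusted p = 1.57e-13) and in pollinated embryo sacs (-3.84 ± 0.35, adjusted p = 3.01e-20). Per length it was the leading MYB model of nucellus, with 6.55 ± 1.61 RPKM in pollinated embryo sacs, 25.3 ± 4.45 in embryo sacs and 181 ± 51.1 in nucellus (SD, n = 2 each).

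MYB-IF35 (GRMZM2G051256_T01), 1 of 2 models of its gene, followed the same order with smaller steps. It had 34.0 and 41.1 CPM in pollinated embryo sacs, 52.9 and 54.5 CPM in embryo sacs, and 91.5 and 104 CPM in nucellus. The tissues did not overlap. It was lower in pollinated embryo sacs than in nucellus (-1.38 ± 0.16, adjusted p = 8.29e-15). The differences of pollinated embryo sacs from embryo sacs (-0.51 ± 0.17, adjusted p = 0.00855) and of embryo sacs from nucellus (-0.86 ± 0.14, adjusted p = 2.11e-08) were under the fold threshold. With total count scaling the embryo sac value against nucellus was -1.61 and was called.

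The MYB-CC gene GRMZM2G173943 had 2 models with different values. The MYB-CC family holds the phosphate starvation regulator PHR1 of Arabidopsis. Model T01 had 0.51 and 0.49 CPM in pollinated embryo sacs, 2.13 and 1.53 CPM in embryo sacs, and 3.21 and 5.42 CPM in nucellus. Nucellus had 8.72 times its pollinated level (2.26 to 74.5, adjusted p = 0.000585). Its lower level in embryo sacs than in nucellus (-1.22 ± 0.55, adjusted p = 0.0462) was not called after leaving out any 1 of the 6 libraries, with adjusted p up to 0.474. Model T02 had 8.63 and 4.90 CPM in pollinated embryo sacs, 3.55 and 3.05 CPM in embryo sacs, and 3.67 and 4.33 CPM in nucellus, and was not called in any comparison. Without pollinated embryo sac replicate 2 it was called higher after pollination (1.39, adjusted p = 0.0412) and higher in pollinated embryo sacs than in nucellus (1.13, adjusted p = 0.0498). With total count scaling it was called lower in embryo sacs than in nucellus (-1.02, adjusted p = 0.0408). With reads summed over both models, the gene did not pass in any comparison, at 0.49 ± 0.43 after pollination (adjusted p = 0.337), -0.69 ± 0.36 in embryo sacs against nucellus (adjusted p = 0.0889) and -0.20 ± 0.36 in pollinated embryo sacs against nucellus (adjusted p = 0.635). Only unique reads were counted, so reads common to both models are missing and their split is uncertain.

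The 17 models left out of the test were seen at a few reads each. Without the low-count filter, 5 of them were called in at least 1 comparison, each time as higher in an embryo sac tissue. The share of all models called in that fit is not given here, so no result is read from this count. The best covered was MYB8 (GRMZM2G041415_T01), with 8 and 3 reads in pollinated embryo sacs, 8 and 8 in embryo sacs, and 2 and 3 in nucellus. Myb4 (GRMZM2G095904_T01, MYB41 in the reference table) had 3 and 7 reads in pollinated embryo sacs, 1 and 4 in embryo sacs, and 0 in nucellus. A model of the typical P-type (GRMZM2G126566_T01), a class named for maize P1, which drives red phlobaphene pigment, had 4 reads in each library of pollinated embryo sacs and none elsewhere. A P-type model of another gene (GRMZM2G014534_T01) had 5 and 1 reads in pollinated embryo sacs, 2 and 0 in embryo sacs, and 0 in nucellus. The remaining called model, a Myb-related protein Zm1 (GRMZM5G833253_T01), had 1 and 2 reads in pollinated embryo sacs, 2 and 7 in embryo sacs, and 0 in nucellus. MYB46 (GRMZM2G052606_T01), whose Arabidopsis namesake starts secondary wall synthesis, had reads in nucellus alone, 1 and 2. The DIVARICATA model (GRMZM2G486741_T01), named for a factor of flower asymmetry in Antirrhinum, had 1 and 6 reads in pollinated embryo sacs, 1 and 0 in embryo sacs, and 1 and 4 in nucellus. Of all 27 models, 14 had reads in all 3 tissues and 6 in only 1. At 3 reads the floor was 0.65 to 1.52 CPM per library, so a model without reads may lie anywhere under it.

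Genes of processes that plant MYB proteins control were read from the same test. The phenylpropanoid list had 6 tested models, of which 3 were higher and 2 lower after pollination, 4 higher and 1 lower in embryo sacs against nucellus, and 3 higher and 3 lower in pollinated embryo sacs against nucellus. The median log2 fold changes were -0.25, 1.28 and -0.01. All models tested had 13.0% higher and 19.3% lower, 23.2% and 16.3%, and 27.2% and 28.0% in the same order. The first and last median had the other sign with DESeq2, at 0.54 and 0.62. The counts in embryo sacs against nucellus were 2 higher and 2 lower with total count scaling and 2 and 0 with DESeq2. Phenylalanine ammonia-lyase (GRMZM2G118345_T01), the entry enzyme of the pathway, had 94.9 and 104 CPM in pollinated embryo sacs, 3.55 and 7.63 CPM in embryo sacs, and 2.75 and 2.38 CPM in nucellus, and it rose after pollination by 4.16 ± 0.24 on the log2 scale (adjusted p = 6.01e-36). A caffeoyl-CoA O-methyltransferase of lignin synthesis (GRMZM2G004138_T04), 1 of 2 models of its gene, had 0 reads in pollinated embryo sacs. It was at least 2.73-fold lower there than in embryo sacs (adjusted p = 9.43e-05), at 2.84 and 5.34 CPM. A caffeoyl-CoA 3-O-methyltransferase 1 model of another gene (GRMZM2G127948_T01), 1 of 4 models of that gene, rose after pollination by 2.01 ± 0.50 (adjusted p = 0.000326). It had 9.65 and 9.79 CPM in pollinated embryo sacs and 2.49 and 2.29 CPM in embryo sacs. Its reads covered only 3.57% of its length in both pollinated libraries. The list thus held models moving both ways after pollination.

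The flavonoid and anthocyanin list was read beside the same shares of all models. Of 21 tested models, 9 were higher and 1 lower after pollination, 10 higher and 1 lower in embryo sacs against nucellus, and 13 higher and 4 lower in pollinated embryo sacs against nucellus, with median log2 fold changes of 0.55, 0.92 and 1.72. All models likewise had more called higher (4368) than lower (3065) in embryo sacs against nucellus. With total count scaling the counts were 6 and 2, 8 and 6, and 10 and 5, and the medians 0.38, 0.17 and 0.80. Dihydroflavonol-4-reductase (GRMZM2G057328_T01), an enzyme of anthocyanin synthesis, had 399 and 405 CPM in pollinated embryo sacs, 88.8 and 70.6 CPM in embryo sacs, and 14.0 and 15.2 CPM in nucellus. It stepped up between tissues in the order seen for the MYB112 and ZmMYB31 models, by 2.33 ± 0.12 after pollination (adjusted p = 5.47e-41) and by 2.45 ± 0.16 in embryo sacs against nucellus (adjusted p = 7.22e-32). A flavonoid 3-monooxygenase (GRMZM2G125482_T01) had 1203 and 1464 CPM in pollinated embryo sacs and 2.84 and 1.14 CPM in embryo sacs. The 1 model called lower after pollination, an anthocyanidin 5,3-O-glucosyltransferase (GRMZM2G063550_T01), had 0 reads in pollinated embryo sacs and 1.07 and 3.81 CPM in embryo sacs. Control of these enzymes by the MYB models was not tested.

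Among possible partner proteins of MYB complexes, 0 of 5 tested bHLH models were called after pollination by edgeR or by DESeq2, and 0 had an unadjusted p under 0.05 in either. By edgeR, 13.0% of all tested models were higher and 19.3% lower after pollination, and 23.2% and 16.3% in embryo sacs against nucellus. The 5 bHLH models included T01 and T04 of the gene GRMZM2G058451, and are too few to read a result from 0 calls. In embryo sacs against nucellus 1 bHLH model was higher and 2 were lower, 1 and 4 with total count scaling and 1 and 1 with DESeq2. Of 11 tested WD40 models, 1 was higher and 2 lower after pollination. By edgeR and by DESeq2, 0 WD40 models were called in embryo sacs against nucellus, with an unadjusted p under 0.05 for 4 higher and 1 lower in edgeR and 2 higher in DESeq2. With total count scaling 2 WD40 models were called lower there. A model described as pale aleurone color1 (GRMZM2G058432_T01) bears the name of the WD40 partner in maize kernel pigment control. It had 37.6 and 41.6 CPM in pollinated embryo sacs, 25.9 and 24.8 CPM in embryo sacs, and 28.0 and 26.4 CPM in nucellus. Its pollinated values were above the other 4, with a log2 fold change over embryo sacs of 0.64 ± 0.21 (adjusted p = 0.00623), under the fold threshold. The model GRMZM2G058292_T01 of another gene is described as the anthocyanin regulator PAC1, the short form of that name, and was counted in the flavonoid list. Which of these genes is the partner in the kernel was not tested. GRMZM2G058292_T01 had 22.8 and 23.0 CPM in pollinated embryo sacs, 16.7 and 22.9 CPM in embryo sacs, and 35.5 and 38.6 CPM in nucellus. Its log2 fold changes were 0.22 ± 0.24 after pollination (adjusted p = 0.463) and -0.91 ± 0.20 in embryo sacs against nucellus (adjusted p = 3.74e-05), neither of them called, so the models with this name differed in their order of tissues.

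The G2/M list, genes that three-repeat MYB factors control in other plants, held 2 cytokinesis syntaxins. Both rose after pollination and both were lower in embryo sacs than in nucellus, also with total count scaling and with DESeq2. Of all tested models, 13.0% were higher after pollination and 16.3% were lower in embryo sacs than in nucellus. The list of 2 models is too small to read a result on G2/M genes from. The KNOLLE model (GRMZM2G131525_T01), which directs vesicle fusion at the cell plate, had 30.5 and 41.1 CPM in pollinated embryo sacs, 17.8 and 11.4 CPM in embryo sacs, and 35.1 and 48.7 CPM in nucellus. It rose after pollination by 1.29 ± 0.24 (adjusted p = 1.52e-06). Pollinated embryo sacs and nucellus overlapped.

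**Figure D4:**
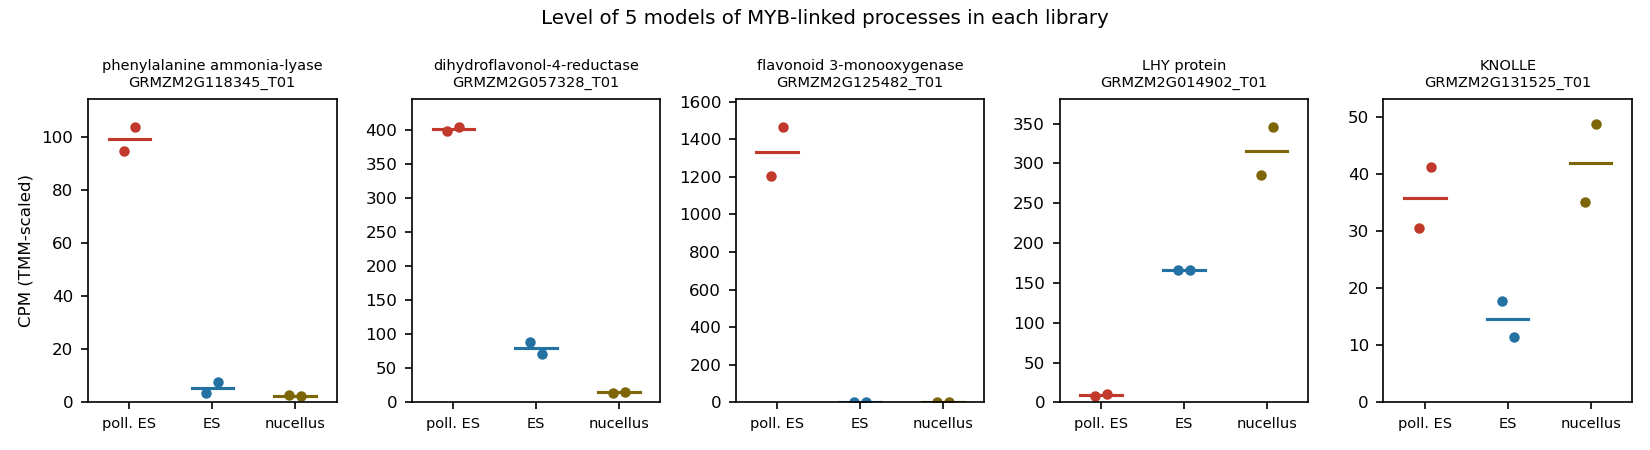
Level in CPM, on linear axes from 0, of 5 models of processes that plant MYB proteins control or, for LHY, carry out; points are libraries and bars are means of the 2 libraries of pollinated embryo sacs (poll. ES), embryo sacs (ES) and nucellus. Phenylalanine ammonia-lyase, dihydroflavonol-4-reductase and flavonoid 3-monooxygenase are highest after pollination, and the LHY model falls to 8.63 and 10.3 CPM there.

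Of 12 tested models of the clock list, 0 were called higher and 7 lower after pollination by edgeR (0 and 9 at an unadjusted p under 0.05; 0 and 6 called by DESeq2), 3 higher and 4 lower in embryo sacs against nucellus, and 3 higher and 8 lower in pollinated embryo sacs against nucellus. The shares of all tested models were 13.0% and 19.3%, 23.2% and 16.3%, and 27.2% and 28.0%. With total count scaling the clock counts in embryo sacs against nucellus were 2 higher and 7 lower. The LHY model (GRMZM2G014902_T01), itself a MYB-related clock protein, had 8.63 and 10.3 CPM in pollinated embryo sacs, 166 and 166 CPM in embryo sacs, and 285 and 346 CPM in nucellus. It fell after pollination by 4.12 ± 0.19 on the log2 scale (adjusted p = 9.19e-47). The labels give no time of day for the collections, and its part in the result was not tested.

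Models that the description rule missed were counted separately where a MYB name was found for them. Of these, 21 models of 13 genes have myb in lower case or GAMYB in their description, and 52 models of 38 genes are named MYB or MYBR only in the reference gene table. A name alone does not show a MYB protein. The tested reference-named models include GRMZM5G835542_T01, named MYBR64 but described as the enzyme 2-C-methyl-D-erythritol 2,4-cyclodiphosphate synthase. The LHY model, and a flavonoid-list model described as anthocyanin regulatory C1 protein (GRMZM2G143274_T01), are in neither set. The C1 model had 0 reads in pollinated embryo sacs, 1 and 0 in embryo sacs, and 1 and 0 in nucellus. After pollination, 1 was higher and 2 lower among the 10 tested models with myb in lower case, and 2 higher and 8 lower among the 26 tested reference-named models. Of all tested models, 13.0% were higher and 19.3% lower in that comparison. Median log2 fold changes were -0.06 and -0.61, against 0.00 for the 10 tested MYB models of the rule and -0.08 for all models. In embryo sacs against nucellus, 3 were higher and 1 lower in the lower-case set, and 8 higher and 4 lower in the reference-named set, beside 23.2% and 16.3% of all models. Both balances turned with total count scaling, to 1 higher and 4 lower and to 6 higher and 8 lower, and DESeq2 gave 1 and 1 and 7 and 4.

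**Figure D5:**
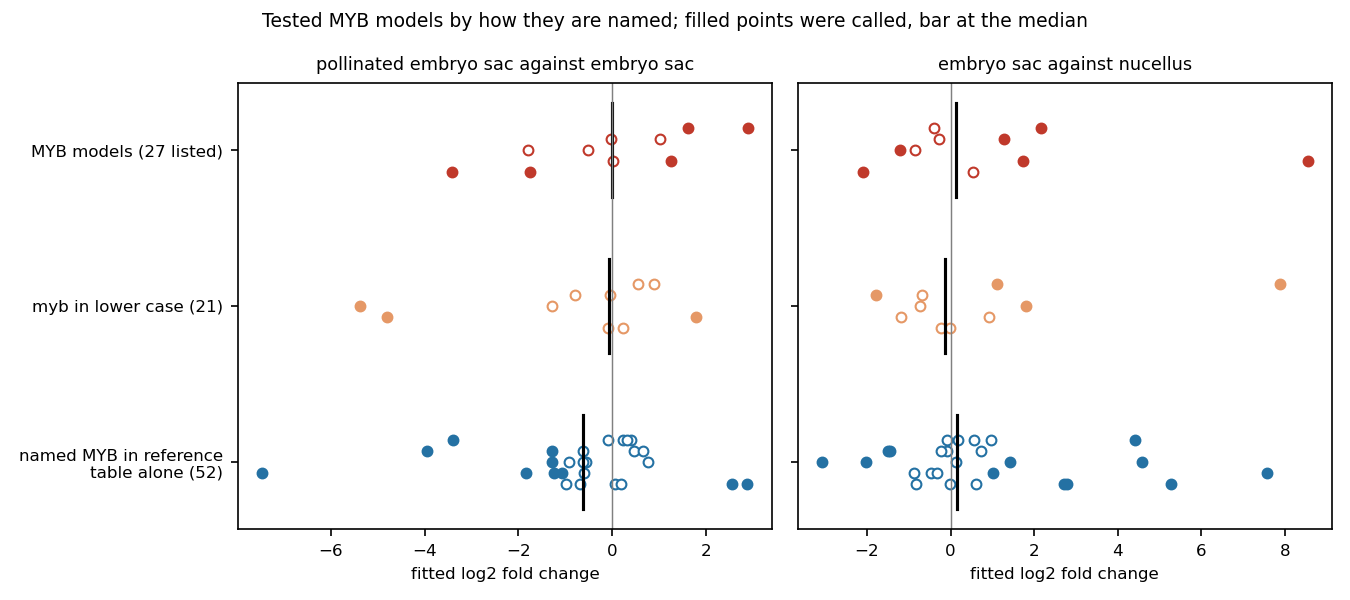
Fitted log2 fold changes after pollination (left) and in embryo sacs against nucellus (right) of the tested models with a MYB name, grouped by how they are named. Filled points were called, and the black bar is the median of the group. After pollination the medians are 0.00 for the 10 tested models of the rule, -0.06 for the 10 with myb in lower case and -0.61 for the 26 named in the reference table alone.

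A few of these models are given as examples, chosen after their values were seen. A myb-related protein Zm1 (GRMZM2G097636_T01) had 17.8 and 17.6 CPM in pollinated embryo sacs, 9.59 and 9.53 CPM in embryo sacs, and 0 reads in nucellus, so that it was at least 26.5-fold higher in pollinated embryo sacs (adjusted p = 7.3e-22) and at least 14.3-fold higher in embryo sacs (adjusted p = 1.39e-15) than in nucellus. MYB134 (GRMZM2G001824_T01) had 107 and 111 CPM in pollinated embryo sacs, 20.3 and 16.8 CPM in embryo sacs, and 0.23 and 0.65 CPM in nucellus, and rose after pollination by 2.55 ± 0.19 (adjusted p = 1.73e-26). Both models were ordered as the MYB112 model was, with no overlap between tissues. MYB121 (GRMZM2G147346_T01) was highest in unpollinated embryo sacs, with 133 and 140 CPM in pollinated embryo sacs, 247 and 193 CPM in embryo sacs, and 31.9 and 32.1 CPM in nucellus. Its difference after pollination (-0.69 ± 0.12, adjusted p = 4.43e-07) was under the fold threshold, and it was higher in embryo sacs than in nucellus by 2.78 ± 0.13 (adjusted p = 8.28e-47). In embryo sacs its level of 129 ± 22 RPKM was near the 120 ± 10.6 RPKM of the MYB112 model (SD, n = 2 each). Model T02 of MYBR22 (GRMZM2G468479_T02) had 0 reads in pollinated embryo sacs, against 8.88 and 5.34 CPM in embryo sacs and 9.17 and 8.88 CPM in nucellus, and was at least 4.75-fold lower after pollination than in embryo sacs (adjusted p = 6.16e-08). The other model of that gene, GRMZM2G468479_T01, kept 17.3 and 14.7 CPM in pollinated embryo sacs, against 25.2 and 38.5 CPM in embryo sacs and 31.2 and 32.5 CPM in nucellus, and its difference after pollination (-0.99 ± 0.24, adjusted p = 0.000258) was just under the fold threshold. The level of myb2 (AC203535.4_FGT001) was 257 and 228 CPM in pollinated embryo sacs, 243 and 270 CPM in embryo sacs, and 304 and 297 CPM in nucellus, and no comparison of it was called.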

How the data were processed

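RNA of 6 maize samples was sequenced after poly(A) selection, per the labels' protocols. The deposited unique read counts per transcript model are whole numbers without normalisation. A model absent from a library's table was set to 0 there. The deposited RPKM is the count scaled to model length and total unique reads, and recomputing it gave a largest relative difference of 1.39e-08. The deposited coverage is the percent of a model's length with reads, per the file headers. The genome build, like the aligner and counter, is not given in the sources used here. For 17 of the 24 genes a symbol was found in RefSeq's gene table of NAM-5.0 maize. Sequences and coordinates were not used here.

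All 6 libraries entered 1 model of the counts in edgeR 4.0.16 (R 4.3.3), with its filterByExpr filter, TMM scaling and robust quasi-likelihood test, and p-values were adjusted by Benjamini-Hochberg over 18844 models. TMM factors were 0.782 and 0.768 for pollinated embryo sacs, 0.873 and 0.878 for embryo sacs, and 1.48 and 1.47 for nucellus. The log2 fold changes carry a standard error from the F statistic. Replicates correlated at 0.981, 0.979 and 0.983 (Pearson, log2 of CPM + 1, across models) in pollinated embryo sacs, embryo sacs and nucellus. A level of 0 was bounded at 3 reads per library, and for 1 to 3 reads in a tissue a ratio with an exact 95% interval was given. The fit was tested on simulated counts.

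Models were named where they were called, did not overlap and reached 5 CPM (the 12 largest changes each way), were among the 6 highest by RPKM in a tissue, had no read in 1 tissue and 5 CPM in another, or had a symbol in the reference table. Other models without a symbol, and those named from the gene lists and the MYB-named models outside the rule, were partly chosen after their values were seen. Members and gene lists were chosen with earlier results of these data known. Alternatives were DESeq2 1.42.0, total count scaling, no low-count filter, no fold threshold, a replicate block, 2 tissues at a time, sums per gene, leaving out each library, and, chosen after seeing the data, a rule that ignores letter case. A count of MYB repeats and correlations among the models were planned and not run: protein sequences were not used, and the libraries fall into 3 tissue clusters.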

Additional observations from a re-analysis of the deposited data

How the results depend on the processing

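With 2 libraries per tissue, small differences of models with few reads could be missed, although some models with few reads were called. Of 329 alternative values for single models, 301 kept direction and side of the threshold, 13 lost a call, 5 gained one and 10 changed sign. In embryo sacs against nucellus, the 4 models called higher became 2 with total count scaling, 7 without the low-count filter and 7 with any letter case. The 2 called lower became 5 with total count scaling and 1 with DESeq2, with sums per gene, without the filter and without any single library (1 to 1). In pollinated embryo sacs against nucellus, the 5 higher became 9 without the filter and 8 with any letter case, and the 4 lower became 7 with any letter case. The 2 lower after pollination became 4 with any letter case. Sign changes were in differences that were not called. In embryo sacs against nucellus, GRMZM2G098179_T01 was -0.20 with total count scaling, and GRMZM2G088783_T01 ranged from -1.29 to 0.18 over left-out libraries. After pollination, GRMZM2G078820_T01 was 0.02 with DESeq2 and -0.32 to 0.23 over left-out libraries, and GRMZM2G139284_T01 was -0.14 with total count scaling, -0.02 with 2 tissues alone and -0.24 to 0.29 over left-out libraries. In pollinated embryo sacs against nucellus, GRMZM2G173943_T02 was -0.18 with total count scaling. The causes were not tested.

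No deviation shared by same-numbered libraries was seen (correlations -0.02, 0.02 and 0.00), and the labels state no pairing. From 2 libraries per tissue it cannot be told whether the samples were collected in pairs. With the replicate block, models called lower in embryo sacs against nucellus numbered 1, as GRMZM2G173943_T01 was not called (-1.19, adjusted p = 0.0782). No other call of a tested MYB model changed under the block.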
